A study of Mus musculus with 2 samples.

Results

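The proteasome subunit genes of the mouse are described here in the ovary shortly after birth. The members were all genes whose symbol consists of Psm, a letter from a to g and a number. The rule found 48 of the 31057 genes listed in the files, and each of the 48 matched the GRCm38 annotation by its Ensembl identifier, on 16 chromosomes. They comprise 7 alpha and 7 beta subunits of the core, 3 immunoproteasome subunits, 2 tissue forms, 6 ATPases and 3 other subunits of the base, 8 lid subunits, 5 activators and inhibitors, and 7 assembly chaperones.

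Whole ovaries of CD1 female mice at postnatal day 2 were dissociated with collagenase IV and Accumax and profiled by droplet single-cell RNA sequencing of transcript 3′ ends. CD1 is an outbred strain, the labels name no transgene or treatment, and each of the 2 libraries pooled the ovaries of pups of a single mother. After filtering, replicate 1 held 3642 cells and replicate 2 held 4371 cells, with a median of 8653 and 6199 unique molecular identifiers (UMIs, each a counted molecule) per cell. The libraries shared 21 cell barcodes. Clusters of cells were named from marker genes as germ-like, granulosa-like, interstitial-like, mesothelial-like, immune-like and endothelial-like. The immune-like type held only 33 and 64 cells in replicate 1 and replicate 2, and the endothelial-like type 60 and 33. In each type all defining markers of that type were detected in both libraries. Mesothelial-like cells also carried granulosa and interstitial markers, immune-like cells interstitial and erythroid markers, and endothelial-like cells perivascular markers, with the values given below. The libraries stood apart within the germ-like cells: a cluster led by Bfsp1 held 200 cells of replicate 1 and 11 of replicate 2, whereas a cluster led by Oas1d held 11 and 439. The third germ-like cluster, led by Mael, held 28 and 226 cells and had little RNA, with a median of 2768.5 and 2481 UMIs per cell. All 3 clusters were kept.

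The proteasome is the protease that destroys ubiquitin-tagged proteins in the cytoplasm and nucleus. Its barrel-shaped core is a stack of alpha and beta rings, with the protease sites on the beta subunits Psmb5, Psmb6 and Psmb7. A regulatory particle, made of a base with ATPases and a lid, binds the tagged protein, removes the ubiquitin and feeds the chain into the core. Cells that receive interferon, and many immune cells at rest, replace the active subunits by Psmb8, Psmb9 and Psmb10, which cut peptides that fit class I antigen presentation. The core can also be capped by activators such as the ring formed of Psme1 and Psme2. Assembly chaperones put the rings and the base together and then leave.

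Several members lie beside each other or beside antigen-processing genes. On chromosome 17 (GRCm38), Psmb9 spans 34181987 to 34187764 on the minus strand, and Psmb8 spans 34197721 to 34201454 on the plus strand. The peptide transporter gene Tap1 lies between them, overlapping the start of Psmb9 and ending 495 bases before Psmb8, and Tap2 follows 2072 bases after Psmb8. Psme1 and Psme2 face each other on chromosome 14, 5911 bases apart. On the same chromosome Psmb5 and the thymus subunit Psmb11 are 3410 bases apart. Psmb10 lies on chromosome 8, between 105935735 and 105938444.

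The start regions of Psmb8 and Psmb9 are shown beside those of Psmb5 and Psmb6, the subunits they replace, and of Psme1, because many of the results turn on the immunoproteasome and its cap. Each sequence runs 5′ to 3′ on the gene's strand, from 250 bases before to 50 bases after the RefSeq start (GRCm38.p6). Capitals mark a match on either strand to GAAA, any 2 bases, GAAA (the core of the interferon-stimulated response element, ISRE) or TGACNNNGC (the core of the antioxidant response element, which Nfe2l1 and Nfe2l2 can bind).
Psmb8, chr17:34197945-34198244, plus strand: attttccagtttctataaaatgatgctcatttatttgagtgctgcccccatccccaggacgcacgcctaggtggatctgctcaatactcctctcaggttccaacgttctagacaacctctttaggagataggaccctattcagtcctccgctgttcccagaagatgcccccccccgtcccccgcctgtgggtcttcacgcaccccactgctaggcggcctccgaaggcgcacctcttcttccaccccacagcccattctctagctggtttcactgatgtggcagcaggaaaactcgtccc
Psmb9, chr17:34187281-34187580, minus strand: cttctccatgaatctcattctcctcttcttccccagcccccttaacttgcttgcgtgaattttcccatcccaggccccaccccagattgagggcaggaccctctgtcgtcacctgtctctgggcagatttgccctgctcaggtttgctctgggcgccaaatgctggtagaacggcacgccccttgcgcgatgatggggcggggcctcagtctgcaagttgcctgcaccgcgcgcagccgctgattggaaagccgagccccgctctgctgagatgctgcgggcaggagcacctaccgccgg
Psmb5, chr14:54617946-54618245, minus strand: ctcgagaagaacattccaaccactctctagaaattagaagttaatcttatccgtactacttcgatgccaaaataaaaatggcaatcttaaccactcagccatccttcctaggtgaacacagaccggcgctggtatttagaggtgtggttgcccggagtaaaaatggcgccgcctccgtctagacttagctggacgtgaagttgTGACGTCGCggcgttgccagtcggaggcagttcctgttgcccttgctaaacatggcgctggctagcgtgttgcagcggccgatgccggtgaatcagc
Psmb6, chr11:70525107-70525406, plus strand: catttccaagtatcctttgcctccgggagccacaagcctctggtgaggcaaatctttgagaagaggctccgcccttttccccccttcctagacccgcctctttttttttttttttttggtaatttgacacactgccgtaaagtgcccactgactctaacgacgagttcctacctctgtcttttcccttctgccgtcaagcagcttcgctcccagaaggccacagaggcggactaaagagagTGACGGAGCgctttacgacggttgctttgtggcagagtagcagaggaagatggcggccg
Psme1, chr14:55578244-55578543, plus strand: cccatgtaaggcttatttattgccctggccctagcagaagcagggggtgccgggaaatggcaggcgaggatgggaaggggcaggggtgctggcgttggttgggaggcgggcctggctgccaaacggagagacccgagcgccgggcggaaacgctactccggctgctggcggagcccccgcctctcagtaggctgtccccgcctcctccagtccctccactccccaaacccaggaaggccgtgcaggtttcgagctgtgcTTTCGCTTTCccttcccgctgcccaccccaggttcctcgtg

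The start region of Psme1 held a match to the ISRE core, and those of Psmb5 and Psmb6 a match to TGACNNNGC each. The windows of Psmb8 and Psmb9 held neither. In the annotation Psmb8 starts at 34197721, Psmb9 (minus strand) at 34187764 and Psme1 at 55578123. The windows of these 3 genes thus lie wholly inside the annotated genes. Bases upstream of those annotated starts were not searched. A start region was at hand for 40 members and for 27025 genes in all. TGACNNNGC was found in 6 of the 40 members (15%) and in 14% of all genes. The 6 were Psmb5, Psmb6, Psmc6, Psmd12, Psmd9 and Psme4. The ISRE core was found in 5 members (12.5%), against 3.99% of all genes. The 5 were Psmb3, Psmd4, Psmd9, Psme1 and Psmg4, and so none of the 3 immunoproteasome genes. A match describes the letters of a window and does not show that a factor binds there.

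To compare cell types, UMIs were summed per library and type, and each type was tested against the mean of the other 5 types with edgeR's quasi-likelihood test. For every type but the germ-like, that mean includes germ-like cells, so a gene high there has a lower difference in the other types. A gene is said to be called, or to have risen or fallen, where its Benjamini-Hochberg adjusted p was under 0.05 over all 14872 genes tested. Of the 48 members, 47 passed the filter on low counts, and Psmb11 did not. Log2 differences are given with the standard error (SE). Each type had 2 libraries, so the p-values measure the spread between these pools of pups, together with the spread of the other types. Whether the mothers of the 2 pools were different animals is not stated in the sources used here. Of the 47 members tested, 43 were called in at least 1 type (91.5%), against 91.4% of all genes tested. In germ-like cells and no other type 29 members rose (61.7%), against 29.4% of all genes.

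Proteasome transcripts made up a larger share of UMIs in germ-like cells than in the other 5 types. Levels are given as CPM, the UMIs of a gene scaled to a total of 1000000 UMIs in that type and library, and because the assay counts 3′ ends they are not scaled by length. The 48 members summed to 10310 and 10410 CPM in germ-like cells of replicate 1 and replicate 2. The other 5 types lay between 6857 and 7898, so germ-like cells did not overlap with any of them. Granulosa-like cells had 7508 and 7271, interstitial-like cells 7898 and 7463, and mesothelial-like cells 6907 and 7021. The immune-like sums were 6857 and 7811, and the endothelial-like sums 7159 and 7837. Immune-like and endothelial-like cells overlapped with most other types, and mesothelial-like cells lay below granulosa-like and interstitial-like cells in both libraries. With each cell thinned to 2000 UMIs that order turned in replicate 2, where the mesothelial-like sum was 7550, the granulosa-like sum 7397 and the interstitial-like sum 7417. Per cell the gap was wider, at 716 and 425 UMIs in a germ-like cell against 47.3 to 117 in the other types, and germ-like cells also had the highest median number of UMIs per cell.

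The excess in germ-like cells was uneven over the complex. The alpha ring was nearly level over all types, at 2235 and 2314 CPM in germ-like cells and between 1815 and 2217 elsewhere. The beta ring reached 3263 and 3233 in germ-like cells, above the 1964 to 2479 of the other types. The base, with its ATPases, stood at 2251 and 2335 in germ-like cells against 957 to 1397 elsewhere. The assembly chaperones showed a like gap, at 938 and 883 against 292 to 437. The lid was closer, at 1247 and 1278 against 831 to 1134. Immunoproteasome transcripts went the other way, at 16 and 20.4 in germ-like cells against 27.5 to 557 elsewhere.

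**Figure D1:**
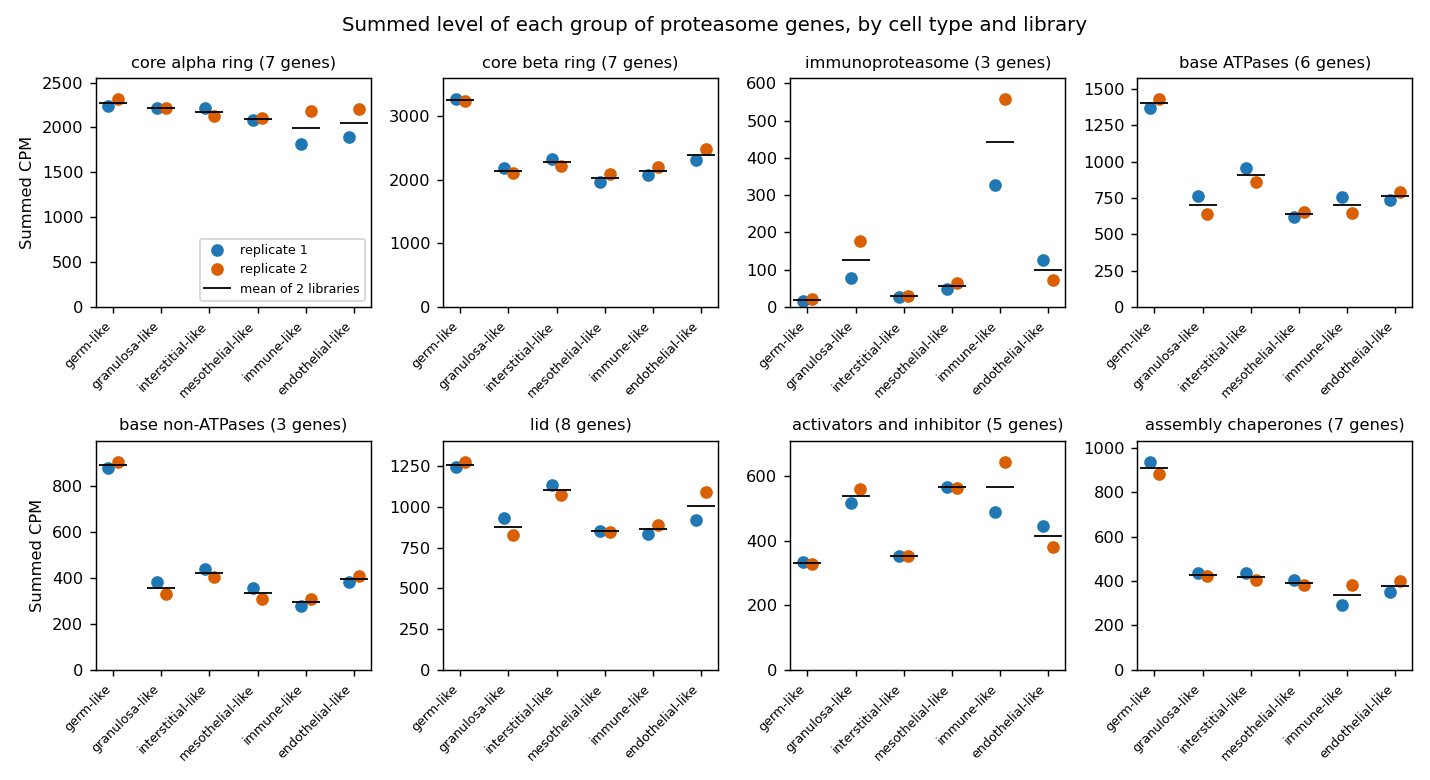
Summed CPM of 8 groups of proteasome genes (vertical axes, from 0) in the 6 cell types (horizontal axes), with 1 point per library and a bar at the mean of the 2 libraries. The base, assembly chaperones and beta ring stand highest in germ-like cells, the alpha ring is nearly level, and the immunoproteasome is highest in immune-like cells.

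Among the 47 members tested in germ-like cells, 32 rose and 9 fell. Over all genes tested, 41.6% rose and 24.8% fell there, and the median log2 difference was 0.71 for the members and 0.29 for all genes. With DESeq2, whose scaling and model both differ from edgeR's, 31 members rose and 11 fell (37.4% and 36.6% of all genes), the medians were 0.56 and -0.01, and with scaling by library totals alone they were 0.65 and 0.23. All 6 base ATPases, all 3 other base subunits and all 7 assembly chaperones rose. Each cell was also reduced to 2000 UMIs, so that the cells kept weighed alike. Cells with fewer UMIs were left out, and 227 of 239 and 589 of 676 germ-like cells stayed. Then 20 members rose and 10 fell, and the median was 0.30 for the members and -0.01 for all genes. Of all genes, 29.5% rose and 25.4% fell. All 20 rises were among the 32, and 4 of 6 base ATPases, 2 of 3 other base subunits, 5 of 7 assembly chaperones, 3 of 7 beta and 2 of 8 lid subunits were among them. The rises not called with thinned cells were those of Psma7 (0.07), Psmb4 (0.26), Psmb5 (0.30), Psmc1 (0.21), Psmc4 (0.28), Psmd1 (0.32), Psmd3 (0.25), Psmd5 (0.36), Psmd12 (0.23), Psmg3 (0.22), Psmd11 and Psmd13, the last 2 with their direction turned (-0.21 and -0.17).

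**Figure D2:**
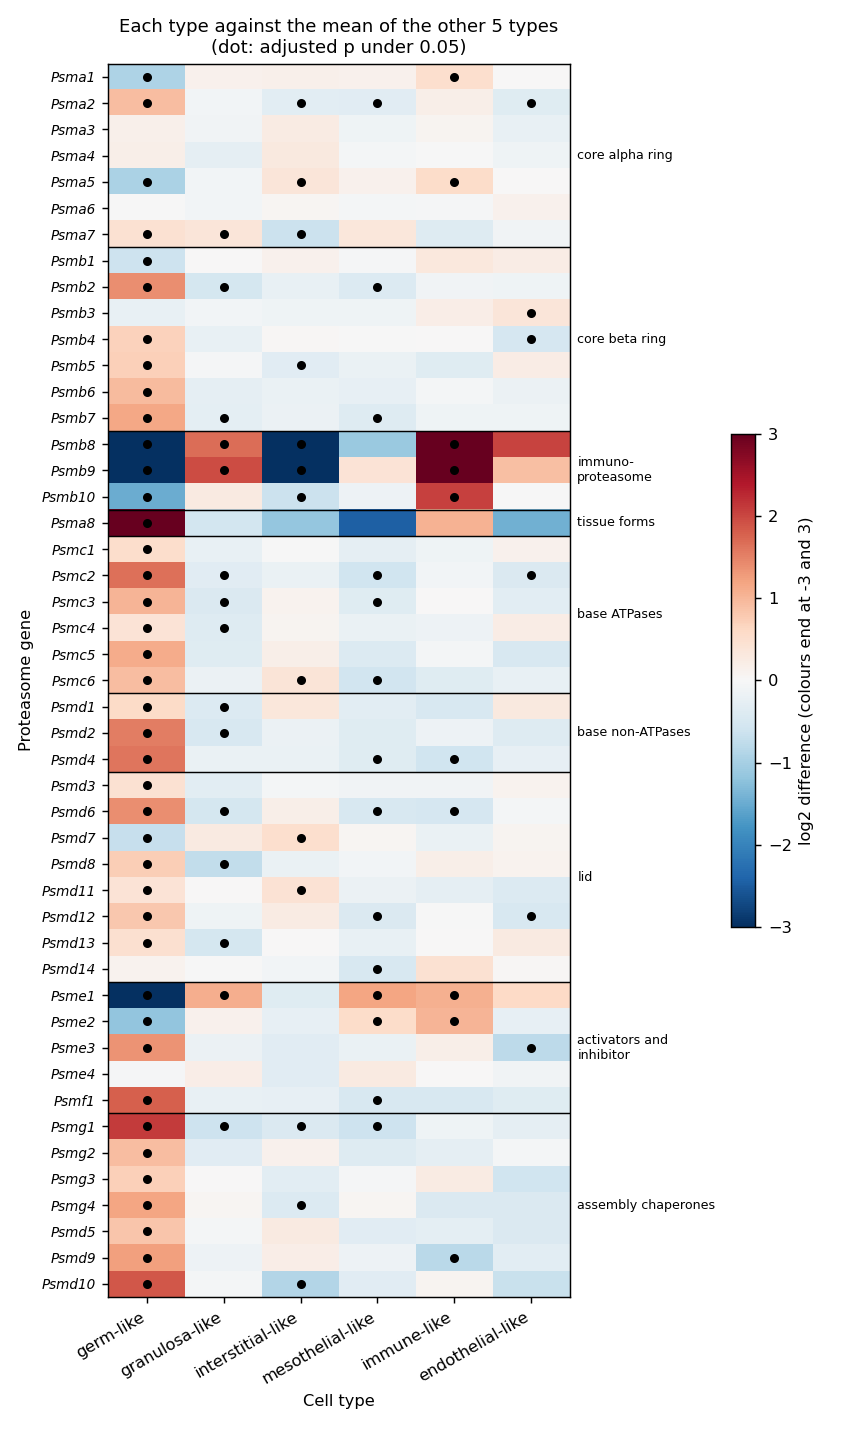
Log2 difference of each of the 47 tested members (vertical axis, grouped by role) in each cell type (horizontal axis) against the mean of the other 5 types, from blue (lower) to red (higher) with colours ending at -3 and 3, with a dot where the adjusted p was under 0.05. The germ-like column is red with a dot for 32 members, while Psmb8, Psmb9, Psmb10, Psme1 and Psme2 are blue there and red in immune-like cells.

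The largest rise in germ-like cells after the tissue form Psma8 was that of Psmg1, which pairs with Psmg2 to start the alpha ring. Psmg1 had 162 and 153 CPM in germ-like cells, and 30.3 to 45.2 in the other types. Its log2 difference was 2.10 ± 0.10 (SE, adjusted p = 7.22e-09). Psmd10, a chaperone of the base also known as gankyrin, followed with 134 and 128 against 27.8 to 57.1 elsewhere (log2 difference 1.86 ± 0.13, adjusted p = 1.83e-07). The other chaperones rose by log2 differences of 0.71 (Psmg3) to 1.24 (Psmd9). Psmg3 was the least abundant chaperone on average, with 50.9 and 47.5 in germ-like cells (its exons overlap the listed gene Gm26938 on the same strand, so its counts are uncertain), and Psmg4 the most abundant, with 274 and 247.

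In the base, the ATPase Psmc2 had 320 and 365 CPM in germ-like cells and 94.8 to 135 elsewhere (log2 difference 1.66 ± 0.11, adjusted p = 6.68e-08). Psmd4, a ubiquitin receptor, had 471 and 501 against 122 to 193 (1.61 ± 0.10, adjusted p = 4.90e-08). The groups did not overlap for either gene. Psmd2, the scaffold that docks ubiquitin shuttle factors, rose by 1.54 ± 0.11. The smallest rise among the 9 base members was that of Psmc4, at 0.40. Psmc3 was the most and Psmc1 the least abundant ATPase on average, with log2 differences of 1.01 and 0.53, and Psmc1 lost its call without germ replicate 2 (0.30).

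In the lid, 6 of 8 members rose, 1 fell and 1 was not called. Psmd6 rose most, with 263 and 273 CPM in germ-like cells against 80 to 150 elsewhere (log2 difference 1.40 ± 0.11, adjusted p = 3.53e-07). Psmd7 fell, with 105 and 115 against 129 to 241 (-0.70 ± 0.12, adjusted p = 2.74e-04), again with no overlap. Psmd8, the most abundant lid subunit on average, rose by 0.74. Psmd3, the least abundant, rose by 0.46, a call lost when either germ library was left out (0.34 without replicate 1 and 0.31 without replicate 2). Psmd14, the deubiquitinase of the lid, was the member not called, with 99 and 97.6 against 67.7 to 146.

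In the core, members moved apart in germ-like cells. Of the beta ring, 5 of 7 rose, led by Psmb2 with 778 and 798 CPM against 273 to 369 elsewhere (log2 difference 1.39 ± 0.09, adjusted p = 6.46e-08). The 3 constitutive protease subunits rose by 0.71 (Psmb5), 0.95 (Psmb6) and 1.15 (Psmb7). Psmb1 fell, with 316 and 329 against 421 to 614 (-0.62 ± 0.15, adjusted p = 0.00296), although it was the most abundant beta subunit on average. Of the alpha ring, Psma2 (0.92) and Psma7 (0.45) rose, whereas Psma1 and Psma5 fell and the other 3 were not called. Psma1 had 106 and 114 in germ-like cells against 191 to 260 elsewhere (-0.93 ± 0.13, adjusted p = 4.57e-05). Psma5 had 126 and 121 against 208 to 306 (-0.96 ± 0.11, adjusted p = 1.32e-05). Without germ replicate 2, Psma7 was no longer called (0.23). Psma3, Psma4, Psma6, Psme4 and the untested Psmb11 were the 5 members with no call in any type, though Psme4 gained a call with other settings, as given below.

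The tissue forms had most of their UMIs in germ-like cells. Psma8, on chromosome 18, encodes the alpha subunit that replaces Psma7 in germ cells and is known from meiosis in the testis. It had 481 UMIs (29 CPM) in germ-like cells of replicate 1 and 474 UMIs (17.2 CPM) in replicate 2. Each other type gave between 0 and 28 UMIs in a library. Its log2 difference was 4.57 ± 0.34 (adjusted p = 2.23e-07), and its size depends on the low counts elsewhere. Within germ-like cells, Psma8 was 4.62% of the UMIs of Psma7 and Psma8 in replicate 1, with a 95% exact interval of 4.22 to 5.04, against 2.65% (2.42 to 2.89) in replicate 2. The cluster with little RNA, led by Mael, had 82.2 and 24.1 CPM from 13 and 30 UMIs. The cluster led by Oas1d had 79.5 and 17 from 30 and 442 UMIs. The cluster led by Bfsp1 had 27.3 and 6.33 from 438 and 2 UMIs. Psma8 was seen in 76.2% and 42.8% of germ-like cells, and in 1.56% and 1.28% of granulosa-like cells, which were shallower (a median of 9816 and 9168 UMIs against 76717 and 48521.5). With each cell thinned to 2000 UMIs, these shares were 11% of 227 and 4.24% of 589 germ-like cells that were deep enough, against 0.121% of 1656 and 0.329% of 608 granulosa-like cells. Psmb11, the thymus subunit, was not tested: it had 41 and 45 UMIs in germ-like cells and at most 3 UMIs in any other type and library. The end of its transcripts shares a stretch with many other listed genes, so these counts are uncertain.

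The activators moved apart in germ-like cells. Psme1 and Psme2, which form the interferon-inducible cap, fell in germ-like cells, whereas Psme3, the nuclear activator, and Psmf1, an inhibitor of the core in vitro, rose. Psme1 had 7.96 and 22.4 CPM in germ-like cells, against 104 and 109 in interstitial-like cells and 153 to 259 in the other 4 types. Its log2 difference in germ-like cells was -3.56 ± 0.36 (adjusted p = 3.35e-06), and it rose in granulosa-like (1.09), mesothelial-like (1.19) and immune-like cells (1.06). The rise was no longer called without granulosa replicate 2 (0.99), without mesothelial replicate 1 (1.13), and when either immune library was left out (1.33 without replicate 1 and 0.74 without replicate 2).

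Psme2, the partner of Psme1, had 78.2 and 76.2 in germ-like cells against 127 to 290 elsewhere (-1.18 ± 0.15, adjusted p = 2.56e-05). It rose in mesothelial-like (0.54) and immune-like cells (1.01). Without mesothelial replicate 2 its rise there was not called (0.44). The last 400 bases of Psme2 transcripts share stretches of 60 bases with the listed gene Psme2b, so its counts are uncertain. Psme3 had 106 and 95.6 in germ-like cells against 28.2 to 59.5 (1.34 ± 0.13, adjusted p = 2.76e-06). It fell in endothelial-like cells (-0.78), a call lost when either endothelial library was left out (-0.57 without replicate 1 and -0.85 without replicate 2). Psmf1 had 111 and 110 in germ-like cells against 24.3 to 40.7 elsewhere (1.79 ± 0.11, adjusted p = 6.22e-08). It was called as lower in mesothelial-like cells. That call was lost with gating (-0.57), thinned cells (-0.43) and no filter (-0.5). It was also lost without mesothelial replicate 1 (-0.57) and without replicate 2 (-0.4). Psme4, a monomeric nuclear cap, lay between 22.9 and 36.6 in all types and was called in none. With thinned cells (0.99) and against the summed other cells (0.45) Psme4 was called as higher in granulosa-like cells.

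**Figure D3:**
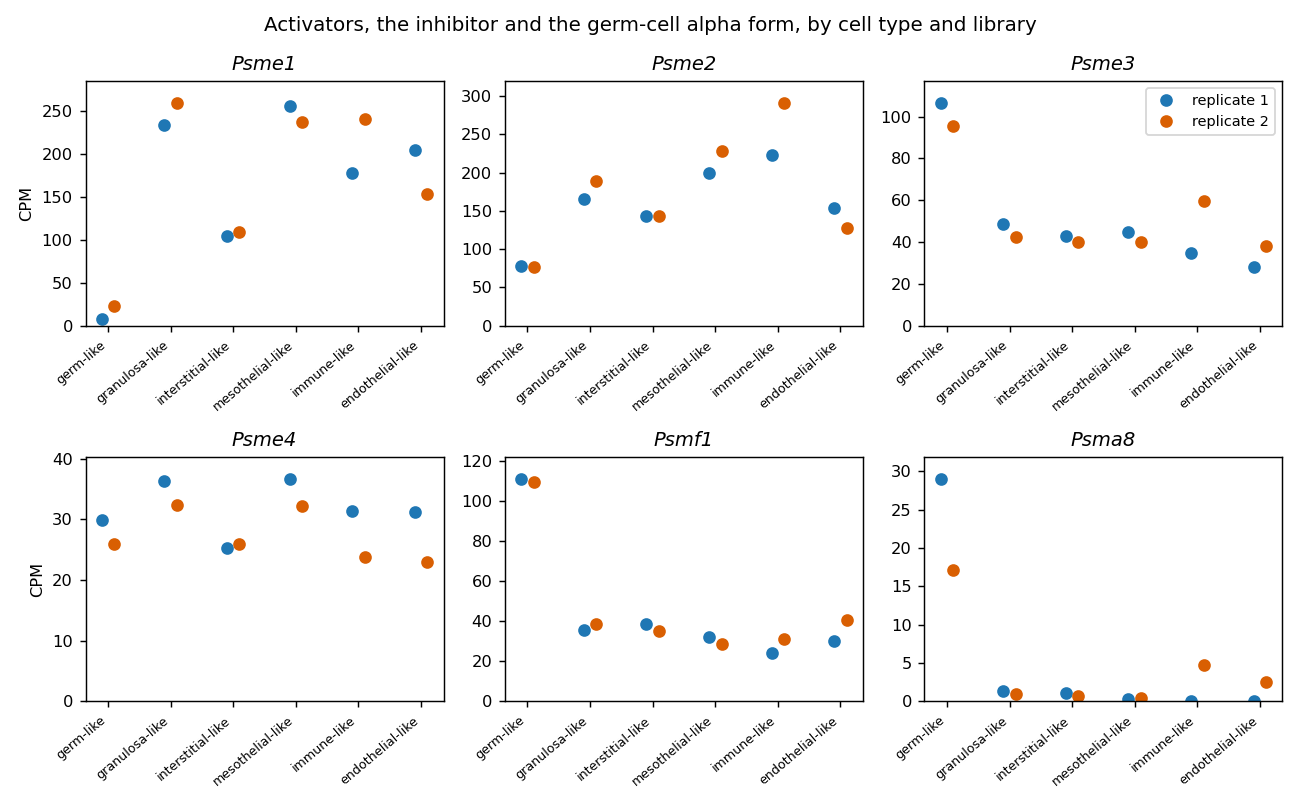
CPM (vertical axes, from 0) of Psme1, Psme2, Psme3, Psme4, Psmf1 and Psma8 in the 6 cell types, with 1 point per library. Psme1 and Psme2 are lowest in germ-like cells, Psme3, Psmf1 and Psma8 are highest there, and Psme4 is nearly level.

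The immunoproteasome subunits varied widely between cell types. Psmb8, which replaces Psmb5, had 174 and 324 CPM in immune-like cells, 59.4 and 28 in endothelial-like cells, 18.2 and 62.5 in granulosa-like cells and 4.42 and 10 in mesothelial-like cells. It was low in interstitial-like cells, at 0.878 and 1.20, and had no UMI among the 16580926 UMIs of germ-like cells in replicate 1, where a count of 0 allows up to 0.181 CPM. In germ-like cells of replicate 2 it had 111 UMIs (4.02 CPM). Psmb8 rose in immune-like cells (5.12 ± 0.67, adjusted p = 1.62e-04) and in granulosa-like cells (1.68 ± 0.59, adjusted p = 0.0431), where DESeq2 did not call it (1.76, adjusted p = 0.236). It fell in interstitial-like (-4.58 ± 0.96, adjusted p = 0.00294) and germ-like cells (-3.13 ± 0.81, adjusted p = 0.00439). Against the summed other cells the fall in germ-like cells was not called (-3.07, adjusted p = 0.0808). The difference in endothelial-like cells was 2.02 ± 0.86 and not called (adjusted p = 0.125), and with the library as a replicate block it was 2.47 and called (adjusted p = 0.0195). It was also called with thinned cells (2.91), without the filter on low counts (2.01) and against the summed other cells (2.22). DESeq2, library totals, gating and leaving out the Pcp4 cluster did not call it. The 7 immune markers summed to 4.17 and 45.8 CPM in endothelial-like cells, with 4 of them at 0 in replicate 1 and 3 in replicate 2.

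Psmb9, which replaces Psmb6, followed the same order in part. It had 80 and 102 in immune-like, 20.3 and 67.4 in granulosa-like, 26.1 and 17.8 in endothelial-like, and 13.6 and 19.6 in mesothelial-like cells. Interstitial-like cells had 1.85 and 1.77, and germ-like cells 0.302 and 3.29 (5 and 91 UMIs). Psmb9 rose in immune-like (3.50 ± 0.69, adjusted p = 0.00320) and granulosa-like cells (1.96 ± 0.45, adjusted p = 0.00548), and fell in interstitial-like (-3.54 ± 0.69) and germ-like cells (-3.22 ± 0.64). Psmb10, which replaces Psmb7, varied less, from 13.1 in germ-like to 131 in immune-like cells. It rose in immune-like cells (2.05 ± 0.24, adjusted p = 6.79e-05) and fell in germ-like (-1.49 ± 0.20) and interstitial-like cells (-0.65 ± 0.19, adjusted p = 0.0172). The fall in interstitial-like cells was not called when either interstitial library was left out (-0.54 without replicate 1 and -0.62 without replicate 2), and it turned to 0.16 against the summed other cells. Without immune replicate 2 the rise of Psmb9 in immune-like cells was not called (3.22). Psmb10 was not called in granulosa-like cells, but it was called as higher there with thinned cells (0.82) and against the summed other cells (1.18).

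The 111 and 91 UMIs of Psmb8 and Psmb9 in germ-like cells of replicate 2 came almost wholly from the cluster led by Oas1d, with 110 and 89. That cluster also held most UMIs of all members in these cells, with 270871 in replicate 2. The cluster led by Mael held 13666 and that led by Bfsp1 2961, so they say little about Psmb8 and Psmb9. The 7 granulosa markers, all detected in both libraries, summed to 17.4 CPM in germ-like cells of replicate 1 and 102 in replicate 2. The second value is 5.92% of the level in granulosa-like cells of that library. Psmb8 in germ-like cells of replicate 2 was 6.44% and Psmb9 4.89% of their granulosa-like levels, Tap1 5.37%, and Psme1 8.65%. In replicate 1 the corresponding shares were 0.797% for the markers, 0% for Psmb8, 1.49% for Psmb9 and 3.42% for Psme1. Psmb10 was at 39.1% and 28.5%, and Psme2 at 47.4% and 40.2%, in replicate 1 and replicate 2, well above the marker shares. The 7 immune markers summed to 0.784 and 1.77 CPM in germ-like cells, with 3 of them at 0 in replicate 1 and only Ptprc in replicate 2. The part of granulosa RNA in the germ-like values was not tested.

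As a share of the UMIs of the 3 replaced pairs pooled, the 3 immunoproteasome genes together made up 29.1% and 42.9% in immune-like cells. Granulosa-like cells had 8.12% and 18.1%, endothelial-like cells 12.4% and 7.27%, and mesothelial-like cells 6.01% and 7.37%. Interstitial-like cells had 3.03% and 3.50%, and germ-like cells 1.04% and 1.33%. The 95% exact intervals, which cover counting error only, did not overlap between the libraries in 4 of the 6 types. They were 7.74 to 8.52 and 17.2 to 19 in granulosa-like, 24.2 to 34.4 and 38.7 to 47.2 in immune-like, 10.4 to 14.6 and 4.92 to 10.3 in endothelial-like, and 0.915 to 1.17 and 1.22 to 1.44 in germ-like cells. In immune-like cells Psmb8 was 45.9% (36.3 to 55.7) and 68% (61.1 to 74.4) of the UMIs of Psmb8 and Psmb5. In germ-like cells the residual share was carried mostly by Psmb10, at 3.33% and 2.75% of its pair.

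**Figure D4:**
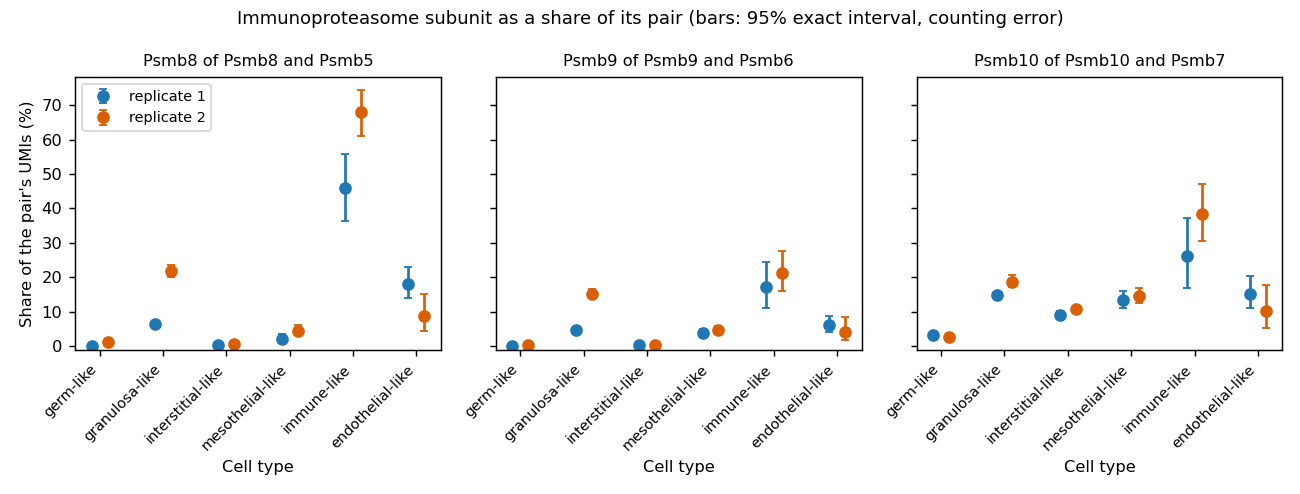
Share of UMIs (%) taken by the immunoproteasome subunit in each of 3 pairs, by cell type, with 1 point per library and bars for the 95% exact interval of counting error. Psmb8 stands at 45.9% and 68% in the immune-like samples, and granulosa-like cells of replicate 2 lie above those of replicate 1 for all 3 pairs.

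Among granulosa-like cells, Psmb8 and Psmb9 differed between the libraries. Psmb8 was 3.43 times and Psmb9 3.32 times as high in replicate 2 as in replicate 1, whereas the ratio was 1.14 for Psmb10 and 1.11 for Psme1. Both genes were higher in replicate 2 in 5 of 5 granulosa-like clusters, by 1.76 to 8.43 times for Psmb8 and by 1.89 to 4.59 times for Psmb9. In the cluster led by Colec11, Wfdc10 and Pld5, Psmb8 was at 27.3 and 94.1 CPM. In the cluster led by Pcp4, Ly6d and Crygb it was at 7.71 and 65. Psmb10 was higher in replicate 2 in 1 of the 5 clusters. The difference has no test, since each library stands alone. Of their neighbours in the granulosa-like cells, Tap2 was at 5.92 and 42.1 and Tap1 at 15.9 and 20.2. The 7 immune markers summed to 0.961 and 1.55 CPM in granulosa-like cells, and only Ptprc among them was at 0 in each library. Without granulosa replicate 2, neither Psmb8 (0.52) nor Psmb9 (0.84) was called in granulosa-like cells.

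**Figure D5:**
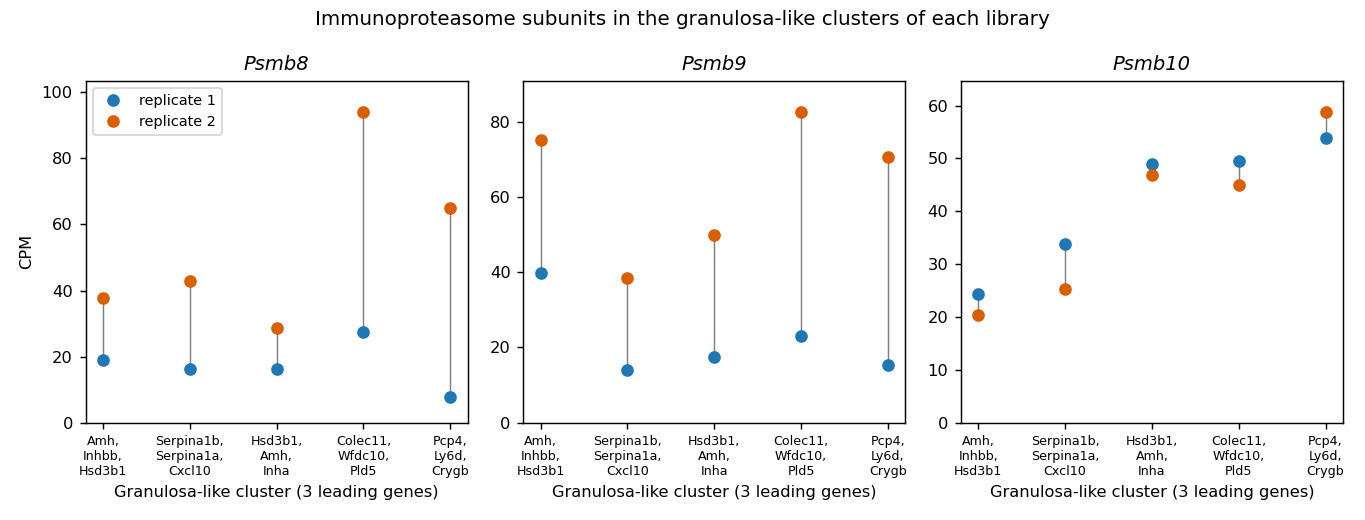
CPM (vertical axes, from 0) of Psmb8, Psmb9 and Psmb10 in the 5 granulosa-like clusters, named by their 3 leading genes, with 1 point per library, the points of a cluster joined by a line. Replicate 2 lies above replicate 1 in all 5 clusters for Psmb8 and Psmb9 and in 1 for Psmb10.

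Outside the immunoproteasome and activators, granulosa-like cells had small differences. In these cells 4 members rose (23.7% of all genes did) and 11 fell (12.1% of all genes). The rises were Psmb9, Psmb8, Psme1 and Psma7, the most abundant alpha subunit on average, with 636 and 621 CPM (0.36 ± 0.12, adjusted p = 0.0422). With either granulosa library left out Psma7 was not called (0.33 without replicate 1 and 0.35 without replicate 2). The lid subunit Psmd8 fell most, with 130 and 133 against 170 to 292 elsewhere (-0.73 ± 0.12, adjusted p = 5.76e-04). Psmg1 (-0.63) and Psmb2 (-0.53) followed. The 11 falls included 5 of the 9 base subunits, 3 lid and 2 beta subunits and 1 chaperone. All 11 of these members rose in germ-like cells, which are part of the reference mean. How much of each fall came from the germ-like level was not tested. The median log2 difference was -0.15 over the members and 0.16 over all genes. DESeq2 called 3 members as higher and 17 as lower (22.8% and 19% of all genes), and scaling by library totals alone 5 and 7 (26.9% and 10.3%). With thinned cells 6 rose and 3 fell (21.6% and 6.1% of all genes), and Psmg1 (-0.50) and Psmb2 (-0.20) were not called. Without granulosa replicate 2, none of the 4 rises and few of the 11 falls kept a call. Fewer of all genes were called, and members were no longer called as lower more often than all genes. The median was then -0.12 over the members and 0.14 over all genes.

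Interstitial-like cells had 4 members up (21.9% of all genes) and 9 down (15% of all genes). The median log2 difference was -0.12 over the members and 0.02 over all genes, and scaling by library totals alone called 7 and 6 (24.9% and 12.6% of all genes). With thinned cells 5 rose and 4 fell (23.3% and 6.94% of all genes), and Psmd10 (-0.60) and Psmb10 (-0.56) were not called. After Psmb8 and Psmb9, the largest fall was that of Psmd10, with 28.4 and 30.7 CPM (-0.87 ± 0.16, adjusted p = 0.00121). Psma7 fell by 0.65 on the log2 scale, a call lost without interstitial replicate 2 (-0.53). The rises were small. The lid subunit Psmd7 had 238 and 241 (0.50 ± 0.11, adjusted p = 0.00422), the lid subunit Psmd11 145 and 142 (0.44), the ATPase Psmc6 212 and 184 (0.38), and the alpha subunit Psma5 286 and 292 (0.36). Psmd11 lost its call when either interstitial library was left out (0.50 and 0.52), and Psmc6 without replicate 1 (0.36) and against the summed other cells (0.20). With the replicate block Psmd1, a base scaffold whose exons overlap the listed gene Gm21972, was called as well (0.33, adjusted p = 0.0404). DESeq2 (0.35), library totals (0.42), gating (0.5), thinned cells (0.64) and leaving out the Pcp4 cluster (0.38) also called it. Dropping the filter and the summed other cells did not.

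In mesothelial-like cells 2 members rose (19.7% of all genes), Psme1 and Psme2, and 12 fell (10.6% of all genes). The median log2 difference was -0.21 over the members and 0.07 over all genes. The falls were shallow, led by Psmg1 (-0.63 ± 0.13), Psmc2 (-0.60 ± 0.13) and Psmc6 (-0.57 ± 0.11). Psmc2 had 95.1 and 94.8 CPM. Psmc2 lost its call when either mesothelial library was left out (-0.61 and -0.60), Psmc6 without replicate 1 (-0.55) and Psmg1 without replicate 2 (-0.50). With either mesothelial library left out, most of the 12 falls lost their call. Fewer of all genes were called too, and members were no longer called as lower more often than all genes. The members' median was then -0.2, against 0.06 over all genes without replicate 1 and 0.03 without replicate 2. With thinned cells 3 rose and none fell (15.1% and 2.41% of all genes). With the replicate block Psma7 was called as higher (0.33, adjusted p = 0.0486), as it was with DESeq2 (0.33) and thinned cells (0.6). The other settings did not call it. The 7 granulosa markers summed to 988 and 966 CPM in mesothelial-like cells, against 2180 and 1730 in granulosa-like cells. The 7 interstitial markers summed to 912 and 1110 CPM in mesothelial-like cells, against 11500 and 11200 in interstitial-like cells. Gated one by one on markers, 207 of the mesothelial-like cells passed as mesothelial, 60 as granulosa, 1 as germ and 204 as none. With gating 2 members rose and 6 fell (16.2% and 5.56% of all genes). The part of granulosa or interstitial RNA in the mesothelial-like values was not tested.

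Immune-like cells had 7 members up, against 12.3% of all genes, and 3 down, against 7.67%. The median log2 difference was -0.04 over the members and -0.32 over all genes. DESeq2 called 8 as higher and 1 as lower (15% and 5.35% of all genes), and scaling by library totals alone 6 and 8 (11.2% each way). With thinned cells 5 rose and none fell (8.38% and 3.24% of all genes), and Psma1 (0.13), Psma5 (0.51) and the 3 genes that fell were not called. Besides Psmb8, Psmb9, Psmb10, Psme1 and Psme2, the alpha subunits Psma5 (0.55) and Psma1 (0.50) rose, the latter not called without immune replicate 2 (0.27). The falls were Psmd9 (-0.81), Psmd4 (-0.59) and Psmd6 (-0.51). Each of the 3 falls lost its call without immune replicate 1 (-0.69, -0.44 and -0.37), and those of Psmd9 and Psmd6 also without replicate 2 (-0.93 and -0.66). Psmd6 was not called with the replicate block (-0.51, adjusted p = 0.0545). The immune-like cells held a cluster led by C1qa (25 and 47 cells) and a smaller cluster led by Arg1 and Cd3g (8 and 17 cells). Psmb8 was at 507 and 567 CPM in the smaller cluster, from 23 and 55 UMIs, and at 112 and 251 in the other. In immune-like cells the interstitial markers summed to 570 and 736 CPM and the erythroid markers to 407 and 452. Gated one by one, 40 of the immune-like cells passed as immune, 9 as interstitial, 6 as germ, 3 as granulosa, 3 as mesothelial and 36 as none. The part of RNA of other types in the immune-like values was not tested.

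In endothelial-like cells 1 member rose (12.3% of all genes), Psmb3 of the beta ring (0.37 ± 0.11, adjusted p = 0.0361), and 5 fell (8.43% of all genes). DESeq2 called 2 as higher and 3 as lower (14.6% and 7.54% of all genes). With thinned cells 1 rose and 1 fell (7.75% and 1.73% of all genes), and Psmb3 (0.39), Psme3 (-0.25), Psmd12 (-0.04), Psmc2 (-0.3) and Psma2 (-0.39) were not called. The median log2 difference was -0.12 over the members and -0.18 over all genes. The largest falls were those of Psme3, Psmb4 (-0.51) and Psmd12 of the lid (-0.49), followed by Psmc2 (-0.44) and Psma2 (-0.36). The calls of Psmb3, Psmb4 and Psmd12 were each lost when either endothelial library was left out, with Psmb3 at 0.42 without replicate 1 and 0.38 without replicate 2, Psmb4 at -0.60 and -0.37, and Psmd12 at -0.55 and -0.39. Without the cluster led by Pcp4, 2 members fell (7.34% of all genes), and Psmd12 was at -0.42 and not called. With the replicate block Psmd12 was not called (-0.50, adjusted p = 0.0521) and 2 members rose (12.4% of all genes). The ends of Psmb3 transcripts share stretches with the listed gene Gm4950, so its counts are uncertain. The perivascular markers summed to 249 and 542 CPM in endothelial-like cells, and the part of perivascular RNA in the endothelial-like values was not tested.

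The summed level also varied between clusters of a type. Among the granulosa-like clusters it was lowest in the cluster led by Serpina1b, Serpina1a and Cxcl10, at 6329 and 5086 CPM. It was highest in the cluster led by Amh, Inhbb and Hsd3b1, at 8809 and 8564. Among the interstitial-like clusters, the one led by the mitotic genes Cdc25c and Cenpa stood at 10090 and 10070 from 26 and 34 cells, and the other 6 lay between 6519 and 8642. The 3 germ-like clusters lay between 9369 and 11920. These are values without a test, since the clusters were made from the same cells.

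Other genes of the ubiquitin pathway were followed as a list of 23, of which 22 were found and tested. In germ-like cells 11 of 22 rose and 2 fell, against 41.6% and 24.8% of all genes. Adrm1, a ubiquitin receptor of the base, rose most, with 355 and 314 CPM (1.99 ± 0.16, adjusted p = 4.48e-07). The deubiquitinase gene Uchl5, whose product binds Adrm1, rose by 1.16 and the ubiquitin-activating enzyme gene Uba1 by 1.06. Nfe2l2, a stress-responsive transcription factor, had the largest change of the list and fell, with 4.16 and 11.8 against 42.7 to 163 elsewhere (-3.35 ± 0.35, adjusted p = 3.83e-06). It rose in immune-like (1.67) and granulosa-like cells (1.34). In immune-like cells the call was lost when either library was left out (1.58 and 1.80). Nfe2l1, which drives proteasome genes when the proteasome is inhibited, rose in granulosa-like cells, with 80.5 and 73.3 (1.04 ± 0.12, adjusted p = 5.38e-05), and was not called in germ-like cells (-0.24). Granulosa-like cells had 6 of the list up and 3 down (23.7% and 12.1% of all genes), and interstitial-like cells 1 and 7 (21.9% and 15%). Mesothelial-like cells had 2 and 6 (19.7% and 10.6%), immune-like cells 3 and 2 (12.3% and 7.67%) and endothelial-like cells 1 and 4 (12.3% and 8.43%). Nploc4, a cofactor of the segregase Vcp, had the largest called difference of the list in interstitial-like (-0.79) and endothelial-like cells (-1.08), and Uchl5 that in mesothelial-like cells (-0.75). Nploc4 lost its call without interstitial replicate 2 (-0.63) and when either endothelial library was left out (-1.58 and -0.83), and with thinned cells in both types (-0.26 and 0.20).

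The antigen processing list held 10 genes, which serve class I presentation with the immunoproteasome, and all 10 were tested. In germ-like cells 8 of 10 fell and none rose (24.8% and 41.6% of all genes), and in interstitial-like cells 4 fell and none rose (15% and 21.9%). In granulosa-like cells 7 rose and 1 fell (23.7% and 12.1% of all genes), and in immune-like cells 6 rose and none fell (12.3% and 7.67%). In mesothelial-like cells 2 rose and 4 fell (19.7% and 10.6%), and in endothelial-like cells 1 rose and none fell (12.3% and 8.43%). Tap1 had 0 and 1.09 CPM in germ-like cells, against 5.24 to 35.7 elsewhere (-4.18 ± 0.59, adjusted p = 5.62e-05). H2-K1, a class I heavy chain, had 37.9 and 27.6 in interstitial-like cells, 561 and 442 in granulosa-like cells and 647 and 829 in immune-like cells. It fell in interstitial-like cells by 2.75 on the log2 scale. Nlrc5, the transactivator of class I genes, had 7.79 and 9.40 in granulosa-like cells, where it was called as higher (adjusted p = 1.08e-04). It was at 0 in both libraries of interstitial-like and endothelial-like cells. The endothelial-like sums held only 959236 and 393251 UMIs, so a count of 0, which allows up to 3 UMIs, sets a loose limit there. Irf8, a transcription factor of myeloid cells, was called as higher in immune-like (5.39) and endothelial-like cells (2.35). It was called as lower in granulosa-like (-3.38) and mesothelial-like cells (-3.96). With thinned cells its calls in endothelial-like (1.7) and mesothelial-like cells (-2.07) were lost.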

How the data were processed

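The 2 pooled samples of P2 mouse ovary were profiled by droplet sequencing of 3′ ends. The authors deposited UMI counts per gene and cell barcode for each sample, and the submitters' processing notes name Cell Ranger 3.0.2 and GRCm38. The labels and the study's methods name different versions of the reagent kit. The study's own cell filters stand in a note not used here.

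A cell was kept if 500 genes or more were detected and mitochondrial UMIs were 10% or less, which removed 356 cells of replicate 1 and 383 of replicate 2. Doublets were called with Scrublet at a score of 0.225 in both libraries, the automatic threshold of replicate 1, and 96 and 93 cells were removed. The automatic threshold of replicate 2 marked only 2 cells, so the choice was made after seeing it. Cells were clustered with scanpy 1.11.5 (2000 variable genes, 30 principal components, 15 neighbours, resolution 1), with the members and the gene lists left out of the variable genes, which gave 22 clusters. The rule that names clusters was set after the clusters were seen. Erythroid-like cells (11 and 120), perivascular-like cells (51 and 51) and an unnamed cluster (1 and 17) were left out of the tests. The unnamed cluster was led by Upk3b and had all 6 mesothelial markers, but fewer than the 20 cells needed for a name. Its members summed to 8686 and 9200 CPM, from 198 and 902 UMIs, and these cells are not part of the mesothelial-like values.

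For each cell type, the UMI counts of a library were added up and tested with edgeR 4.0.16 (TMM, filterByExpr, quasi-likelihood F-test) with Benjamini-Hochberg adjustment. Shares carry exact (Clopper-Pearson) 95% intervals, and a count of 0 is read as allowing up to 3 counts. Intervals and these limits cover counting error only. Libraries held 54471790 and 59074480 deposited UMIs. The test was tried on simulated data. Members and gene lists were chosen with earlier results of these data known. Results on 1 gene of the antigen processing list are not reported here. Genes given with their values were all immunoproteasome, tissue-form and activator members, the 3 largest called rises and falls of each type, the most and least abundant member of each role, and the called gene with the largest difference of the ubiquitin pathway and antigen processing lists in each type; any other gene was named after its values were seen.

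Cell types with the same library number come from the same animals, so the numbers pair the samples. The deviations from the type means correlated between types at 0.0204 to 0.258 over 14872 genes. Alternatives were DESeq2 1.42.0, scaling by library totals alone, no filter on low counts, the summed other cells as reference, a replicate block, cells thinned to 2000 UMIs, cells gated one by one on markers, a 2-fold minimum, and each library left out in turn. Leaving out the granulosa-like cluster led by Pcp4, which carries mesothelial markers at a low level, was chosen after seeing the data. Sequences come from RefSeq (GRCm38.p6).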

Additional observations from a re-analysis of the deposited data

Results flagged for a closer look

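Cells left out of the comparisons also held proteasome transcripts beyond what 3 UMIs, the limit set by a count of 0, would give. In perivascular-like cells the members summed to 7595 and 7356 CPM in replicate 1 and replicate 2, and the immunoproteasome subunits to 28.57 and 45.56, from 7 and 11 UMIs. In erythroid-like cells the members summed to 5857 and 6790. The immunoproteasome subunits summed to 514.9 in the 11 erythroid-like cells of replicate 1 and to 57.98 in the 120 of replicate 2, from 16 and 9 UMIs. The leading genes of the erythroid-like cluster included Lyz2, Alox5ap and Coro1a, which mark myeloid and other white blood cells, and the part of such cells in these values was not tested.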

How the results depend on the processing

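Among the named genes called in a type, with 1 library of that type left out, where the lone sample is assumed to vary like the others, 93 of 148 calls were kept, 55 were lost and none turned. With thinned cells, which hold fewer UMIs, 41 of 73 calls were kept, 29 were lost and 3 turned. Of 74 calls DESeq2 kept 69, library totals 68, the summed other cells 66, no filter 64, gating 61 and leaving out the Pcp4 cluster 70. With the replicate block 72 were kept, those of Psmd12 and Psmd6 were lost, Psmb8, Psma7 and Psmd1 gained one as given above, and no other call of a named gene changed. Of 80 named results that were not called, 25 gained a call against the summed other cells and 7 with DESeq2. No filter gave 6 such gains, library totals and thinned cells 5 each, gating and the replicate block 3 each, and leaving out the Pcp4 cluster 1. Direction turned for Psmb10 in interstitial-like cells against the summed other cells (0.16) and, with thinned cells, for Psmg1 in mesothelial-like (0.18), Psmd4 in immune-like (0.01) and Nploc4 in endothelial-like cells (0.20). These counts cover the genes and types set by the naming rule, not those named after their values were seen. Outside that rule, Psmd11 (-0.21) and Psmd13 (-0.17) also turned in germ-like cells with thinned cells. The cause of these changes was not tested.

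The counts of members called as higher and as lower moved as follows, in the order germ-like, granulosa-like, interstitial-like, mesothelial-like, immune-like and endothelial-like where a type is given. Against the summed other cells, granulosa-like cells had 11 higher and 22 lower, interstitial-like 7 and 14, mesothelial-like 4 and 19, and endothelial-like 5 and 9, while the shares of all genes called there were 28.5% and 34%, 24.1% and 33.3%, 17.8% and 26.9%, and 12.1% and 17.8%. With thinned cells 20 were higher in germ-like cells, and 3, 4, 0, 0 and 1 were lower in the other types. With a 2-fold minimum, 15 were higher and 5 lower in germ-like cells, and none were lower in granulosa-like cells. It left none higher and 2 lower in interstitial-like, and 1 higher and none lower in mesothelial-like cells. In immune-like cells 0 were lower, and in endothelial-like cells 0 were higher and 0 lower. The share of all genes passing that minimum was not counted. DESeq2 gave 17 lower in granulosa-like, 1 lower in immune-like, and 2 higher and 3 lower in endothelial-like cells. Library totals gave 7 lower in granulosa-like, 7 higher in interstitial-like and 8 lower in immune-like cells. In endothelial-like cells they gave 2 lower (7.32% of all genes). Without a filter 7 were lower in granulosa-like (7.73% of all genes) and 5 lower in interstitial-like cells (8.75%). In endothelial-like cells 3 were then higher and 3 lower (9.2% and 6.84% of all genes). Gating gave 5 lower in interstitial-like (10.4% of all genes), 6 in mesothelial-like (5.56%) and 2 in endothelial-like cells (4.95%). Leaving out the Pcp4 cluster gave 2 lower in endothelial-like cells (7.34%). The replicate block gave 2 higher in endothelial-like cells (12.4% of all genes). With each of the 12 sums of a library and type left out in turn, counts ranged from 26 to 33 higher and 9 to 10 lower in germ-like, 0 to 4 and 3 to 13 in granulosa-like, 1 to 10 and 3 to 8 in interstitial-like, 1 to 3 and 1 to 14 in mesothelial-like, 5 to 7 and 0 to 3 in immune-like, and 0 to 3 and 0 to 4 in endothelial-like cells. The 10 rises in interstitial-like cells came without immune replicate 2. The share of all genes called also varied over these fits, so the counts of members are not to be read alone. In germ-like cells the members' median log2 difference was 0.54 without germ replicate 1 and 0.55 without replicate 2. Over all genes it was 0.16 and 0.08. In interstitial-like cells without immune replicate 2 the median was -0.01 over the members and 0.17 over all genes. Without interstitial replicate 1 and replicate 2 it was -0.11 and 0.01 over the members, against 0.11 and 0.07 over all genes. In immune-like cells without their replicate 1 and replicate 2 it was 0.06 and -0.15, against -0.47 and -0.57. In endothelial-like cells without theirs it was -0.12 and -0.09, against -0.38 and -0.22. With thinned cells the immunoproteasome share was 0.91% in germ-like, 2.91% in interstitial-like and 5.6% in mesothelial-like cells, and the members summed to 7341 CPM in mesothelial-like cells.

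The immune-like and endothelial-like cells had the fewest UMIs of the 6 types, with 287581 to 959236 a library.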
